A study of Mus musculus with 5 samples.

Results

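Immediate early genes, the genes that cells transcribe within minutes of a stimulus without first making new protein, were followed in the spinal cord of Lhx1os knockout and wild type mice. The set comprised 10 of the 55471 gene identifiers in the deposited count table. It was defined by gene symbol, matched in GENCODE M21 on GRCm38, with no threshold on a measured value. It held the AP-1 genes Jun, Junb, Jund, Fos and Fosb, the other inducible transcription factor genes Egr1, Nr4a1, Npas4 and Atf3, and Arc, which encodes a synaptic protein. All 10 passed the filter on low counts.

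Polyadenylated RNA of spinal cord was sequenced from Lhx1os -/- (KO) animals in 2 libraries and from WT animals in 3. Both genotypes were male, 3 months old, of the C57BL/6J strain and sampled at rest. The KO allele was made in fertilized eggs with Cas9 and 1 guide RNA against the second exon of Lhx1os, a long non-coding RNA gene, where a donor oligonucleotide added a synthetic polyadenylation signal and MAZ sequences. No label says how many founders the line came from or that the libraries of a group are separate animals, so p-values measure only the spread between these libraries, which may be technical. Totals ran from 15973063 to 16384033 counts in the KO libraries and from 16086041 to 19437533 in the WT libraries. Lhx1os itself had 13 and 11 counts in the KO libraries against 56, 66 and 51 in the WT libraries, which is −2.13 on the log2 scale (SE 0.28) with an adjusted p of 0.0589 in edgeR's quasi-likelihood test. DESeq2 called Lhx1os at an adjusted p of 0.00195. Defining markers of neurons, astrocytes and oligodendrocytes were all detected.

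AP-1 is a dimer of basic leucine zipper proteins. Jun proteins can pair with each other or with Fos proteins, whereas Fos proteins bind DNA only as partners of a Jun protein. In neurons, calcium entry and growth factor signals switch on Fos, Fosb, Junb, Egr1, Nr4a1, Arc and Npas4 through the transcription factors CREB, SRF and MEF2, and their RNAs are short-lived. Jund is transcribed at a steadier level. The Jun protein is activated by the Jun N-terminal kinases (JNK). Jun and Atf3 are known for their induction in motor and sensory neurons after axon injury. In spinal cord, Fos is widely used as a marker of neurons activated by sensory input.

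The proximal promoters of 4 members are printed because these genes stand for the patterns described below: Jun and Jund, whose levels separated the genotypes, and Fos and Nr4a1, whose levels separated the KO libraries from each other. Each is the 250 bases before the RefSeq start in GRCm38.p6, written 5′ to 3′, with motif matches in capitals.
Jun, chr4:95052223-95052472, minus strand: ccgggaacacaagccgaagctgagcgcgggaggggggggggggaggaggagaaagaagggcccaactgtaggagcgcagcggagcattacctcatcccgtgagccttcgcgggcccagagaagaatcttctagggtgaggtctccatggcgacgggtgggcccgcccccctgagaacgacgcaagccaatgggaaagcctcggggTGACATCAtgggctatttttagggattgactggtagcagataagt
Jund, chr8:70697489-70697738, plus strand: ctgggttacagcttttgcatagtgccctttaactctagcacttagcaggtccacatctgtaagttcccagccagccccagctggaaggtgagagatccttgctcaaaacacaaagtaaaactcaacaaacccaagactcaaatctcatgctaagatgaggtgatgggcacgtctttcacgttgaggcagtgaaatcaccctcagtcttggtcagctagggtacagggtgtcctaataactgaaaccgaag
Fos, chr12:85473640-85473889, plus strand: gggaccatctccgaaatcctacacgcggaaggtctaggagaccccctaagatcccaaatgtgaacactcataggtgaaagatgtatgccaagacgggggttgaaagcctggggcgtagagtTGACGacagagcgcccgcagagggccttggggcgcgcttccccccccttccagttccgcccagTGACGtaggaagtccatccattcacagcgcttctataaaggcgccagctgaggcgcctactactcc
Nr4a1, chr15:101266596-101266845, plus strand: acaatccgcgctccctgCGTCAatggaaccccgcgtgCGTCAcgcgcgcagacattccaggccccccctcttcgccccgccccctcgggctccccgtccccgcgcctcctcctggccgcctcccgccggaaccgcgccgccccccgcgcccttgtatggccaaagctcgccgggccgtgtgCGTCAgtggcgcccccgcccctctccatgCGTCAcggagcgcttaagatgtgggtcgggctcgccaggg
The motifs searched on both strands were the cyclic AMP response element TGACGTCA, its core TGACG, the AP-1 site TGACTCA, the variant TGACATCA and the CArG box bound by SRF. The full element contains the core. The full element, the AP-1 site and the CArG box matched in none of the 8 members' windows, where 1.55%, 4.46% and 1.47% of all RefSeq windows of this length held them. Sites further upstream were not searched. The Jun window held 1 match, TGACATCA, the variant through which Jun is known to regulate its own gene, and 2.93% of all 32851 RefSeq windows of this length held that motif. The core TGACG, shown as CGTCA where it lies on the other strand, matched 2 times in the Fos window and 4 times in the Nr4a1 window, and 17.8% of all windows held it. Among windows not printed, the core matched 2 times for Npas4 and 1 time each for Junb, Fosb and Atf3. It was therefore not particular to Fos and Nr4a1. The Jund window matched none of these letters, and the RefSeq start of Jund lies upstream of the GENCODE start. The Nr4a1 window lies inside the GENCODE gene, which starts at 101254269. Of the 10 members, 8 were in the RefSeq promoter table.

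Levels of different genes were compared as CPM, the usual count scaled to the library total, divided by exon length in kilobases, written CPM per kb. On this scale Jund was the most abundant member. Its mean level over the 5 libraries was 29.8 CPM per kb, followed by Jun at 12.3, Arc at 10.8, Egr1 at 7.82 and Fos at 5.50. Junb at 3.32 and Nr4a1 at 3.25 CPM per kb came next. Npas4 at 0.768, Atf3 at 0.745 and Fosb at 0.377 CPM per kb were the least abundant. Each gene stood above the next in this order in all 5 libraries, with 2 exceptions: Junb exceeded Nr4a1 in 3 of 5 libraries and Npas4 exceeded Atf3 in 2 of 5, so these neighbours could not be ordered. The value of Jund depends on the annotated length, 1668 bases in GENCODE M21 and 2878 in RefSeq. With the RefSeq length, an alternative chosen after the data were seen, its mean was 17.3 CPM per kb, still above Jun.

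All 10 members had positive log2 fold changes, KO over WT, with a median of 0.16 against 0.00 over the 16052 genes tested, of which 51.3% were positive. Neither the shared sign nor the median held without KO replicate 2: 6 members were then negative and the median was −0.018, and without KO replicate 1 the median was 0.37. In edgeR's quasi-likelihood test, adjusted over all genes tested, 0 of the 10 passed 0.05, where 0.0187% of all genes passed. At an unadjusted p under 0.05 there were 4 members, all higher in KO, where 3.49% of all genes were higher in KO at that level. These were Jun, Junb, Jund and Arc. DESeq2 passed 1 member, Jun, where it passed 0.265% of all genes in either direction and 0.0265% as higher in KO. Both KO libraries lay above all WT libraries for 3 members, Jun, Jund and Arc, where 12.9% of all genes did so, and no member had both KO libraries below all WT libraries, where 12% of genes did; the groups of 24.9% of genes did not overlap in either direction. The members are not independent of each other, so their shared sign is a description.

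**Figure D1:**
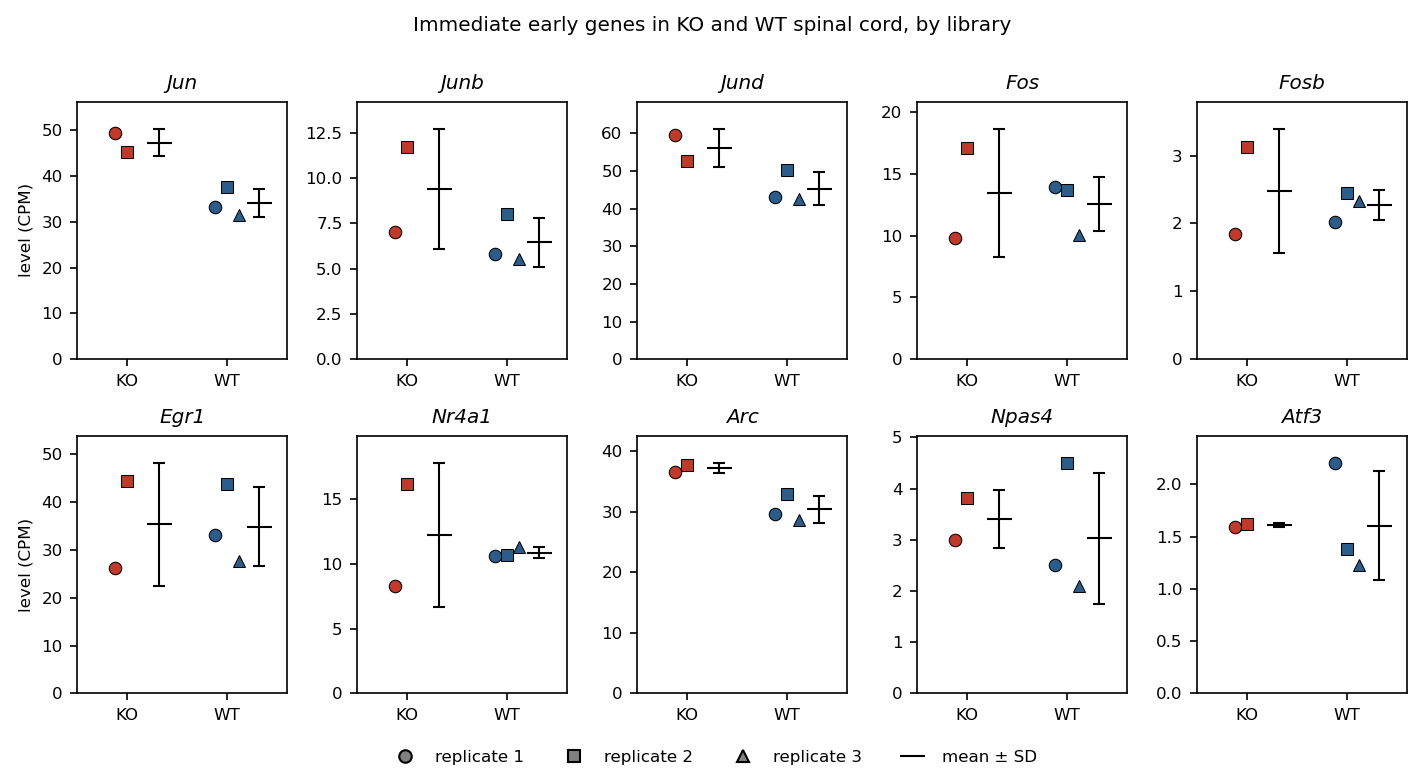
Level of each immediate early gene in CPM (counts scaled to the library total, vertical axis from 0) in the 2 KO libraries and the 3 WT libraries. Symbols mark the replicate, and the bar beside each group is the mean ± SD. Jun, Jund and Arc show no overlap between KO and WT, whereas KO replicate 2 lies well above KO replicate 1 for Junb, Fos, Fosb, Egr1 and Nr4a1.

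Jun was the member of smallest p-value. Jun (ENSMUSG00000052684, chromosome 4 from 95049034 to 95052222, minus strand, a single-exon gene) stood at 49.3 and 45.2 CPM in the KO libraries, against 33.1, 37.6 and 31.5 CPM in the WT libraries. Jun shares 232 exon bases with the antisense gene Junos, which had 10 and 25 counts in the KO libraries and 12, 10 and 11 in the WT libraries, against 805 and 724 counts in the KO libraries and 557, 736 and 512 in the WT libraries for Jun. The lower KO library of Jun exceeded the highest WT library, and the spread within each group was smaller than the gap between their means. The mean was 47.3 ± 2.91 CPM in KO (SD, n = 2) and 34.1 ± 3.14 CPM in WT (SD, n = 3), a 1.39-fold level with a 95% interval of 1.21 to 1.59. Jun's p-value ranked 3 among the 8228 genes with a positive log2 fold change. Its adjusted p was 0.192 in edgeR and 0.0291 in DESeq2, with log2 fold changes of 0.47 (SE 0.09) and 0.47 (SE 0.12), so the call depended on the tool. Without a filter on low counts edgeR also called Jun, at an adjusted p of 0.00777, where 0.373% of all genes passed. With the replicate number as a block, WT replicate 3 had no KO library of its number and so did not inform the contrast. In that fit 0.156% of genes passed and Jun, at an adjusted p of 0.247, did not. Without KO replicate 1 the log2 fold change of Jun was 0.40, without KO replicate 2 it was 0.53, and with each WT library left out it stayed between 0.41 and 0.55.

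Jund (ENSMUSG00000071076, chromosome 8 from 70698949 to 70700616, plus strand) encodes the constitutively expressed Jun protein. Its level was 59.6 and 52.6 CPM in the KO libraries, against 43.0, 50.3 and 42.6 CPM in the WT libraries. The groups did not overlap, although KO replicate 2 and WT replicate 2 lay close together. The log2 fold change was 0.31 (SE 0.09; adjusted p = 0.512, edgeR), and Jund did not pass. Exons of the antisense gene Gm11175 cover 877 of the 1668 exon bases of Jund. Gm11175 had 11 and 19 counts in the KO libraries and 9, 17 and 6 in the WT libraries, against 973 and 842 counts in the KO libraries and 724, 986 and 693 in the WT libraries for Jund. The strand setting of the counting is not given in the sources used here, so reads of the pair cannot be told apart with certainty.

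Junb (ENSMUSG00000052837, chromosome 8 from 84974484 to 84978718, minus strand) encodes a Jun protein that is itself induced by activity and often opposes Jun at shared targets. Junb reached 7.05 and 11.7 CPM in the KO libraries, against 5.83, 8.01 and 5.54 CPM in the WT libraries. KO replicate 2 was the highest of all, and KO replicate 1 lay below WT replicate 2. Junb had the largest log2 fold change of the members at 0.53, but also an SE of 0.23 (adjusted p = 0.657, edgeR), and its 95% interval ran from 0.01 to 1.05. Without KO replicate 2 its log2 fold change was 0.12, so this library decided the size. Junb shares 173 exon bases with Prdx2 on the opposite strand, a gene at 167 ± 2.51 CPM in KO and 165 ± 1.78 CPM in WT.

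The Jun family summed to 54.3 and 50.8 CPM per kb in the KO libraries, against 38.7, 45.4 and 37.8 CPM per kb in the WT libraries, with no overlap between the groups. Jund made up 63.9 ± 2.69% of this sum in KO and 66.9 ± 0.599% in WT (SD, n = 2 and 3). Jun made up 28.5% and 27.9% in the KO libraries, against 26.8%, 25.9% and 26.1% in the WT libraries. The share of Junb was 5.64% and 10.0% in the KO libraries, against 6.54%, 7.67% and 6.36% in the WT libraries, so the KO libraries enclosed the WT range. The sums and shares use the GENCODE length of Jund. With the RefSeq length its mean level was 17.3 instead of 29.8 CPM per kb. The sum and the share of Jund are then lower, and the shares of Jun and Junb higher.

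Fos and Fosb, the partners of the Jun proteins, did not separate the genotypes. Fos (ENSMUSG00000021250, chromosome 12 from 85473890 to 85477273, plus strand) had 9.80 and 17.1 CPM in the KO libraries, against 14.0, 13.7 and 10.1 CPM in the WT libraries. The KO libraries held both the lowest and the highest value. The log2 fold change of Fos was 0.09 (SE 0.22; adjusted p = 0.936, edgeR), with a 95% interval from −0.40 to 0.58. Fosb (ENSMUSG00000003545, chromosome 7 from 19302696 to 19310051, minus strand), whose truncated product accumulates with repeated stimulation, had 1.84 and 3.12 CPM in the KO libraries, against 2.02, 2.45 and 2.34 CPM in the WT libraries. These levels rest on 30 and 50 counts in the KO libraries and 34, 48 and 38 in the WT libraries. Its log2 fold change was 0.12 (SE 0.28; adjusted p = 0.935, edgeR), and without KO replicate 2 it was −0.31. Per kilobase, Fos made up 93.4% and 93.6% of the sum of Fos and Fosb in the KO libraries, against 94.8%, 93.7% and 92.0% in the WT libraries. With the GENCODE length of Jund, the Jun family sum exceeded that sum 12.2 and 6.53 times in the KO libraries. The values were 6.18, 7.32 and 8.11 times in the WT libraries, and the groups overlapped.

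**Figure D2:**
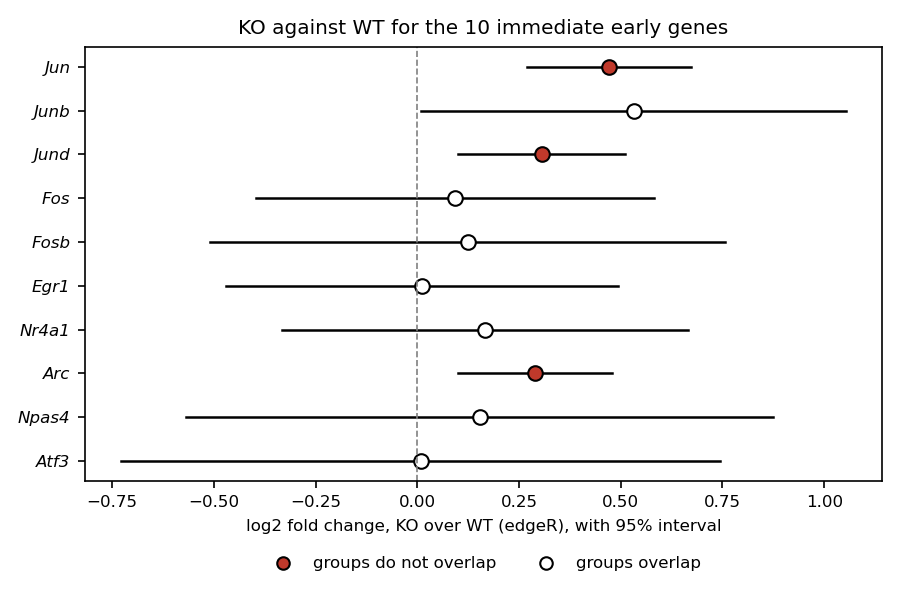
Log2 fold change of KO over WT (horizontal axis) for each immediate early gene, from edgeR with all 5 libraries. Lines are 95% intervals, and filled points mark genes whose KO and WT libraries do not overlap. The intervals of Jun, Jund and Arc are the narrow ones above 0, that of Junb starts at 0.01, and the others span 0.

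Arc (ENSMUSG00000022602, chromosome 15 from 74669083 to 74672570, minus strand), whose protein forms capsid-like particles and removes AMPA receptors from synapses, was the 1 member outside the Jun family whose groups did not overlap. Arc stood at 36.6 and 37.8 CPM in the KO libraries, against 29.7, 33.0 and 28.6 CPM in the WT libraries. The KO libraries were nearly equal, and both lay above the highest WT library. The log2 fold change was 0.29 (SE 0.09; adjusted p = 0.508, edgeR), which did not pass. It stayed between 0.24 and 0.35 with each library left out in turn.

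The other activity-induced transcription factor genes overlapped between the genotypes. Egr1 (ENSMUSG00000038418), a zinc finger factor gene downstream of SRF, had 26.3 and 44.3 CPM in the KO libraries, against 33.1, 43.8 and 27.7 CPM in the WT libraries. Its KO mean of 35.3 ± 12.8 CPM (SD, n = 2) and WT mean of 34.9 ± 8.17 CPM (SD, n = 3) were almost equal, and the 95% interval of its log2 fold change of 0.01 ran from −0.47 to 0.49. Nr4a1 (ENSMUSG00000023034, chromosome 15 from 101254269 to 101274795, plus strand), an orphan nuclear receptor gene, had 8.27 and 16.1 CPM in the KO libraries, against 10.6, 10.7 and 11.3 CPM in the WT libraries. The WT libraries lay within 0.10 of each other on the log2 scale, while the KO libraries stood on either side of them, 0.95 apart. Its log2 fold change was 0.17 (SE 0.22; adjusted p = 0.882, edgeR).

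Npas4 (ENSMUSG00000045903, chromosome 19 from 4984355 to 4990316, minus strand) encodes a neuron-specific factor induced by calcium entry. It had 3.00 and 3.81 CPM in the KO libraries, against 2.497, 4.49 and 2.09 CPM in the WT libraries. WT replicate 2 was the highest, with 88 counts against 42 and 34 in the other WT libraries. The log2 fold change of Npas4 was 0.15 (SE 0.32; adjusted p = 0.927, edgeR). Atf3 (ENSMUSG00000026628, chromosome 1 from 191170296 to 191218039, minus strand), the stress-induced factor gene that accompanies Jun after axon injury, had 26 counts in each KO library, against 37, 27 and 20 counts in the WT libraries. Its levels were 1.59 and 1.62 CPM in KO and 2.20, 1.38 and 1.23 CPM in WT, which edgeR put at 0.01 on the log2 scale (SE 0.33; adjusted p = 0.999). The 95% interval of the Atf3 fold, from 0.604 to 1.68, contains the 1.39-fold level of Jun. So do the fold intervals of Fos (0.76 to 1.5), Fosb (0.703 to 1.69) and Egr1 (0.722 to 1.41). Those of Nr4a1 (0.794 to 1.59) and Npas4 (0.675 to 1.83) contain it as well. Each of these intervals also contains a fold of 1, so it does not tell a change of Jun's size from no change.

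The members fell into different patterns across the libraries. KO replicate 2 exceeded KO replicate 1 for 8 of the 10, where it did so for 50.1% of genes of at least 1 CPM. On the log2 CPM scale the gap was 0.95 for Nr4a1, 0.80 for Fos, 0.75 for Egr1, and 0.73 for each of Fosb and Junb. Gaps larger than that of Nr4a1 between these libraries were found for 1.24% of the 14864 genes of at least 1 CPM, and gaps larger than that of Junb for 3.03%. Jun and Jund ran the other way, with KO replicate 1 above KO replicate 2 by 0.13 and 0.18, a gap that 44.4% and 31.4% of genes exceeded. Among WT libraries, WT replicate 3 held the lowest value of all 5 libraries for 6 members, and WT replicate 2 was highest of the WT libraries for Jun, Junb, Jund, Fosb, Egr1, Arc and Npas4. For Fos, Fosb, Egr1 and Nr4a1, the log2 fold change was below 0 without KO replicate 2, at −0.36, −0.31, −0.41 and −0.39.

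**Figure D3:**
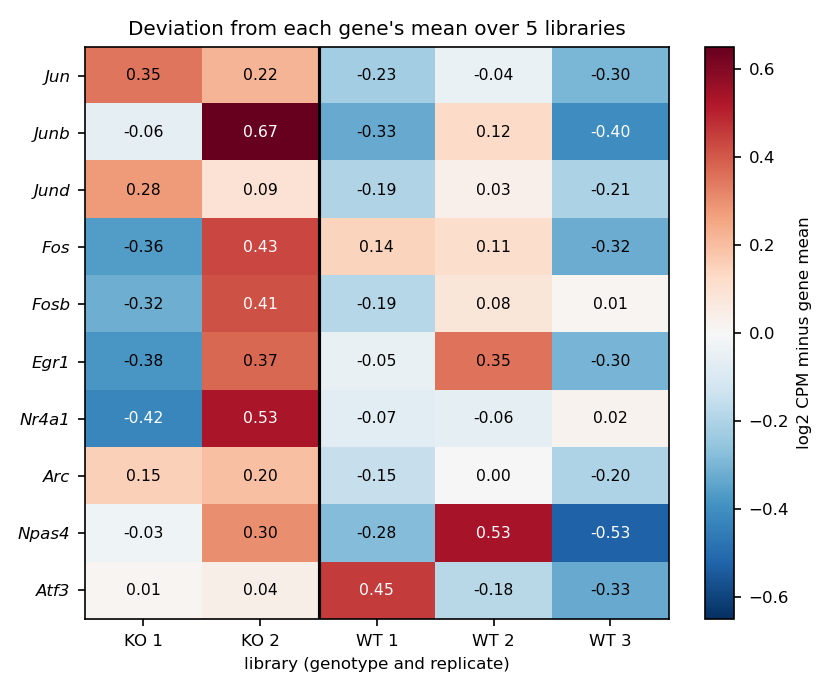
Deviation of each gene's log2 CPM from its own mean over the 5 libraries (colour scale and printed values), with KO libraries left of the line and WT libraries right of it. Rows of Jun, Jund and Arc are above 0 in both KO libraries, and rows of Fos, Fosb, Egr1 and Nr4a1 are below 0 in KO replicate 1 and above 0 in KO replicate 2.

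Genes with a profile close to that of a member were sought by the root mean square difference between centred log2 CPM values over the 5 libraries, among 12002 other genes of at least 5 CPM. The profiles nearest to Jun were those of Nectin1, a cell adhesion gene (0.046), Erf, an ETS family repressor gene (0.060), Zfpm1, a GATA cofactor gene (0.063), Cdh23, a cadherin gene (0.066), and Shroom3, an actin regulator gene (0.071). Nectin1 had 39.3 and 35.7 CPM in the KO libraries, against 28.5, 31.4 and 25.8 CPM in the WT libraries. Among the members, Jund ranked 17 at 0.085 and Arc 53 at 0.11, while Junb ranked 7877, Fos 11240, Egr1 11350 and Nr4a1 11512.

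The profiles nearest to Fos were those of Zim1, an imprinted zinc finger gene (0.10), Zfp658, a zinc finger gene (0.11), Fosl2 (0.12), Gm44168 (0.12) and Cdh4, a cadherin gene (0.13). Fosl2, which encodes the Fos family protein Fra-2, had 8.33 and 12.3 CPM in the KO libraries, against 11.1, 10.9 and 9.29 CPM in the WT libraries. Egr1 ranked 7 at 0.14 and Nr4a1 135 at 0.20, whereas Arc ranked 4085 and Jun 10382. Profiles over 5 libraries are descriptions and share the same RNA samples.

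Jun was compared with each of the 9 other members through the log2 ratio of their values within a library, in which the scale of the library largely cancels. The ratio of Jun to Jund was −0.27 and −0.22 in the KO libraries, against −0.38, −0.42 and −0.44 in the WT libraries, so it was higher in both KO libraries by 0.17 on average. The ratio of Jun to Arc was 0.43 and 0.26 in the KO libraries, against 0.16, 0.19 and 0.14 in the WT libraries, a difference of 0.18. The ratio of Jun to Atf3 was 4.85 and 4.70 in the KO libraries, against 3.84, 4.66 and 4.55 in the WT libraries, a difference of 0.43. These 3 ratios separated the groups, each with p = 0.2 in an exact two-sided permutation test and an adjusted p of 0.6 over the 9 ratios. That is the smallest p this test can give for 2 against 3 libraries, so it could not pass 0.05 whatever the values. All 9 ratios share the value of Jun and are not independent, and the levels of 24.9% of all genes also separated the groups. For Atf3 the separation was 4.70 in KO replicate 2 against 4.66 in WT replicate 2, on 26 and 27 counts of Atf3. The difference was 0.097 for Arc without KO replicate 1 and 0.17 for Atf3 without WT replicate 1, and for Jund it lay between 0.14 and 0.19 with each library left out.

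The other 6 ratios overlapped. The ratio of Jun to Fos was 2.32 and 1.40 in the KO libraries, against 1.24, 1.45 and 1.63 in the WT libraries, a difference of 0.42 (exact permutation p = 0.6) that was −0.044 without KO replicate 1. The ratio of Jun to Egr1 was 0.91 and 0.03 in the KO libraries, against 0.00, −0.22 and 0.18 in the WT libraries (exact permutation p = 0.4). In both, KO replicate 1 alone lay above the WT range. The ratio of Jun to Junb differed by −0.03 between the KO and WT means (exact permutation p = 1).

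**Figure D4:**
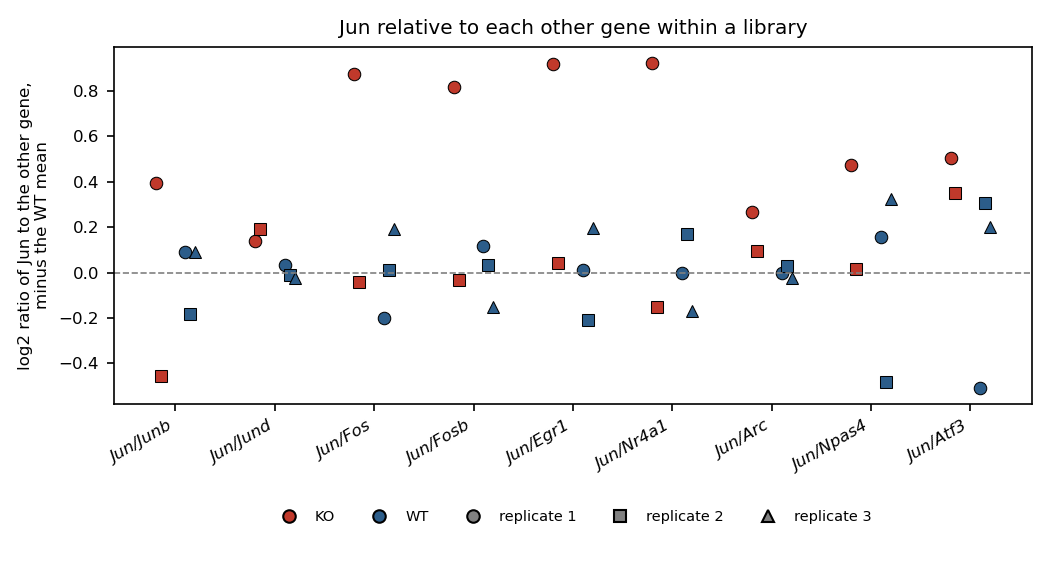
Log2 ratio of Jun to each other member within a library, minus the WT mean of that ratio (vertical axis), for KO and WT libraries with symbols for the replicate. KO replicate 1 lies far above the WT libraries for Fos, Fosb, Egr1 and Nr4a1 while KO replicate 2 lies among them, and both KO libraries lie above WT for Jund, Arc and Atf3.

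Other genes of AP-1 and related leucine zipper factors were not called. Of 13, 10 had enough counts to test, and 0 passed in edgeR or DESeq2 or had an unadjusted p under 0.05 in edgeR, where 7.57% of all genes did. Unlike the members, 1 of these 10 had a positive and 9 a negative log2 fold change, with a median of −0.05, where 51.3% of all genes tested were positive. Maff and Mafk, which encode small Maf proteins, were among those of smallest p-value, with log2 fold changes of −0.62 (SE 0.32) for Maff and −0.19 (SE 0.11) for Mafk. Mafg, the most abundant per kilobase, stood at 100.2 ± 7.21 CPM in KO and 100.3 ± 8.01 CPM in WT. Fosl1, which encodes the injury-induced Fos protein Fra-1, had 3 and 1 counts in the KO libraries and was at 0 in all 3 WT libraries, where 3 counts, the most that a count of 0 allows, are 0.178, 0.153 and 0.185 CPM (counting error only). Batf and Batf2 were also too low to test.

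A wider list of 40 immediate early and activity-induced genes gave 39 tested, with 23 positive and 16 negative log2 fold changes and a median of 0.04. In edgeR and DESeq2 0 passed. At an unadjusted p under 0.05 there were 5 in edgeR, 4 of them higher and 1 lower in KO, where 3.49% of all genes were higher and 4.07% lower. Both KO libraries lay above all WT libraries for 7 of the 39 and below them for 4, where 12.9% and 12% of all genes did so. Arl4d, which encodes a small GTPase, had 10.7 and 17.0 CPM in the KO libraries, against 21.3, 26.1 and 17.9 CPM in the WT libraries (log2 fold change −0.66, SE 0.20; adjusted p = 0.516, edgeR). The adjusted p of Arl4d was 0.0319 without a filter on low counts, 0.0548 with the replicate block and 0.185 in DESeq2. Leaving out KO replicate 1 gave a log2 fold change of −0.36, and leaving out KO replicate 2 gave −1.03. Ppp1r15a, whose product GADD34 directs dephosphorylation of eIF2α, had 14.5 and 15.0 CPM in the KO libraries, against 11.5, 13.0 and 10.9 CPM in the WT libraries (0.31, SE 0.12; adjusted p = 0.626, edgeR). Midn, which encodes midnolin, a protein that carries immediate early proteins to the proteasome, had 39.8 and 40.5 CPM in the KO libraries, against 35.4, 36.5 and 30.3 CPM in the WT libraries (0.24, SE 0.09; adjusted p = 0.632, edgeR). Vgf, a secreted neuropeptide precursor gene and the most abundant of the list per kilobase, overlapped between the groups at 101.3 ± 11.01 CPM in KO and 80.2 ± 23.2 CPM in WT.

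Of these 39 genes, 26 were higher in KO replicate 2 than in KO replicate 1, where 50.1% of all genes of at least 1 CPM were. The median log2 gap of the 39 was 0.07. That median was 0.53 for the 10 members and 0.00 for all genes of at least 1 CPM. Klf2 at 0.97 and Nr4a3 at 0.71, named after their values were seen, had gaps like those of Nr4a1 and Junb. Of the Jun protein turnover genes 5 of 6 were higher in KO replicate 2, with a median gap of 0.03. The axon injury list had 5 of 18 higher, with a median gap of −0.10. The remaining lists lay between 50% and 53.8%.

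Genes that act on Jun and Fos were also not called in edgeR or DESeq2. Of 19 genes of the JNK and MAP kinase pathways, 12 were positive and 7 negative, with a median of 0.03, and 2 had an unadjusted p under 0.05, both lower in KO, where 4.07% of all genes were lower at that level. Mapk8, which encodes JNK1, had 80.9 and 83.8 CPM in the KO libraries, against 91.3, 88.6 and 92.4 CPM in the WT libraries (log2 fold change −0.14, SE 0.06; adjusted p = 0.657, edgeR). Map3k5, which encodes the stress kinase ASK1, stood at −0.22 (SE 0.10) and Mapk14, the gene of p38α, at −0.17 (SE 0.08), with −0.063 when KO replicate 1 was left out and −0.29 when KO replicate 2 was. Mapk8ip1, the most abundant per kilobase, encodes the JNK scaffold JIP1 and had a log2 fold change of 0.12 (SE 0.07).

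Among 13 genes of transcription factors and cofactors that induce immediate early genes, 6 were positive and 7 negative, with a median of 0.00. Creb1, the gene of CREB, was the 1 gene with an unadjusted p under 0.05, lower in KO, where 4.07% of all genes were. It had 40.0 and 48.8 CPM in the KO libraries, against 56.2, 50.1 and 57.0 CPM in the WT libraries, with no overlap (log2 fold change −0.29, SE 0.10; adjusted p = 0.56, edgeR). For Creb1, leaving out KO replicate 1 gave −0.16 and leaving out KO replicate 2 gave −0.44. Crtc1, a CREB coactivator gene, stood at 0.14 (SE 0.07), Srf at 0.16 (SE 0.11) and Mef2d, the most abundant per kilobase, at 0.06 (SE 0.08).

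Of 6 genes that govern turnover of the Jun protein, 4 were negative and the median was −0.08. Of these 6, 1 had an unadjusted p under 0.05, Itch, lower in KO, where 4.07% of all genes were. Itch, a ubiquitin ligase gene for Jun and Junb proteins, had 92.9 and 96.6 CPM in the KO libraries, against 115, 104 and 107 CPM in the WT libraries (log2 fold change −0.20, SE 0.07; adjusted p = 0.561, edgeR). Cop1, another ubiquitin ligase gene, stood at −0.14 (SE 0.08), the deubiquitinase gene Usp28 at −0.19 (SE 0.10) and Fbxw7, the most abundant per kilobase, at −0.02 (SE 0.07).

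Axon injury and regeneration genes known to be induced along with Jun and Atf3 did not move together. Of 18 tested, 10 were positive and 8 negative with a median of 0.05, and 3 had an unadjusted p under 0.05, 1 higher and 2 lower in KO, where 3.49% of all genes were higher and 4.07% lower. Ecel1, which encodes a membrane peptidase induced in injured motor neurons, had 45.2 and 44.6 CPM in the KO libraries, against 37.9, 35.2 and 37.0 CPM in the WT libraries (log2 fold change 0.29, SE 0.07; adjusted p = 0.384, edgeR). Cd44, a hyaluronan receptor gene, stood at −0.31 (SE 0.10) and Flrt3, an adhesion receptor gene, at −0.29 (SE 0.12), with −0.49 when KO replicate 1 was left out and −0.12 when KO replicate 2 was. Stmn4, the most abundant per kilobase, encodes a tubulin-binding stathmin and was at 201 ± 5.12 CPM in KO and 191 ± 13.0 CPM in WT.

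**Figure D5:**
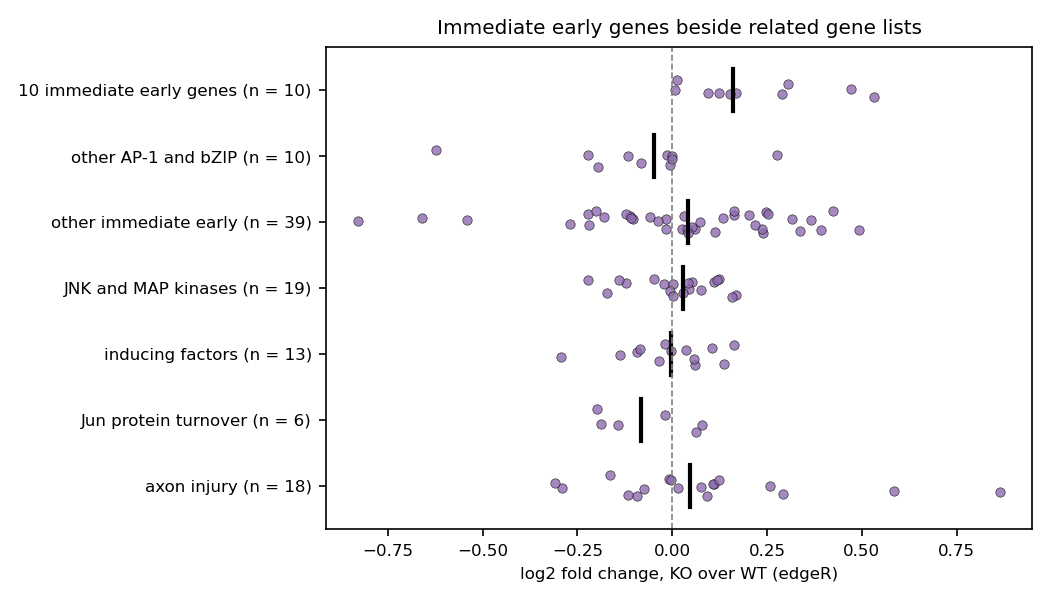
Log2 fold change of KO over WT (horizontal axis, edgeR) for each tested gene of the 10 immediate early genes and of the related lists, 1 point per gene, spread vertically for legibility. The bar marks the median of each list, which is 0.16 for the 10 immediate early genes and between −0.08 and 0.05 for the others.

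Bulk RNA does not tell fewer cells of a type from less RNA per cell. Of the 11 marker lists of the cell types and tissues a cord sample could hold, 9 overlapped between the genotypes in their summed level. For comparison, the groups of 24.9% of all genes tested did not overlap, so the 2 lists that separated are a description. The summed level of 6 oligodendrocyte precursor markers was 389.7 and 363.3 CPM in the KO libraries, against 444.4, 446.1 and 449.4 CPM in the WT libraries. Of these markers 5 had a negative log2 fold change and 1, Cspg4, a positive one of 0.01. Skeletal muscle markers summed to 16.9 and 6.62 CPM in the KO libraries, against 6.60, 6.33 and 3.32 CPM in the WT libraries. Between the KO libraries, where Fos, Egr1 and Nr4a1 differed, endothelial markers summed to 367.3 CPM in replicate 1 and 212.5 in replicate 2, against 230.5 to 294.4 CPM in WT. Schwann cell markers summed to 244.5 CPM in KO replicate 1 and 370.8 in KO replicate 2, against 204.1 to 419.8 CPM in WT. Dorsal root ganglion markers stood at 52.0 CPM in WT replicate 2 and between 11.6 and 13.6 CPM in the other libraries. WT replicate 2 was the highest WT library for Jun, Junb, Jund, Fosb, Egr1, Arc and Npas4. Without that library the log2 fold change of Jun was 0.55, against 0.47 with all libraries. The part of these tissues in the levels of the immediate early genes was not tested.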

How the data were processed

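The authors deposited 1 table of raw counts of reads per gene for the 5 libraries, without normalization. Per the labels' protocols, libraries were made with a stranded, poly(A)-selecting kit from snap-frozen cord powder after cervical dislocation. The submitters' processing notes name cutadapt, Trimmomatic, STAR 2.5.2b, HTSeq and GRCm38, while the annotation release and strand setting were not given in the sources used. Groups came from the sample titles. GENCODE M21 matched 55230 identifiers.

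Genes were kept by filterByExpr (at least 10 counts in enough libraries, 15 in total) and scaled by TMM (factors 0.982 to 1.01). The quasi-likelihood test of edgeR 4.0.16 (R 4.3.3) was run without covariates, with Benjamini-Hochberg adjustment over all 16052 genes. CPM values use TMM-scaled totals, SE is the standard error of a log2 fold change, and log2 CPM and ratios use a prior count of 2. Gene lengths are unions of GENCODE exons. No pair of libraries was a duplicate: the chi-square over genes, per degree of freedom, was 4.17 between KO libraries and 5.89 to 7.89 between WT libraries. On simulated data with 16052 genes the test recovered 71.6% of genes changed 1.5-fold and 74.6% of those changed 2-fold, with 14 unchanged genes called. Those data held 67 genes changed 1.5-fold alone and were drawn from the fitted dispersions, whereas 3 genes were called in the real libraries. The recovery is therefore not the power for the real libraries, where Lhx1os at −2.13 on the log2 scale did not pass in edgeR (adjusted p = 0.0589).

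The members and lists were chosen with earlier results of these data known. Named genes are all members and, from each of 6 other lists, those passing, the 3 of smallest p and the most abundant per kilobase, plus the 5 nearest profiles of Jun and of Fos. A gene that this rule names is not reported here. Alternatives were other size factors, filters, dispersion, DESeq2 1.42.0, limma-voom 3.58.1, a block for the replicate number, leaving out each library, other prior counts and the RefSeq length of Jund. Promoters came from RefSeq (GRCm38.p6).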

Additional observations from a re-analysis of the deposited data

How the results depend on the processing

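Over the whole table, the 3 genes called in edgeR became 6 with DESeq2-type size factors, 96 without a count filter, 12 with robust dispersion, 40 with DESeq2, 1 with limma-voom and 25 with the replicate block, and between 0 and 58 with 1 library left out. DESeq2 and the unfiltered fit each called 1 member, Jun. Jun had a log2 fold change of 0.47 (adjusted p = 0.0291) with DESeq2 and 0.46 (adjusted p = 0.00777) without a filter, and over all alternatives its log2 fold change lay between 0.40 and 0.55. The adjusted p of Jun in the alternatives that did not call it lay between 0.119 and 0.907. Jund (0.21 to 0.39), Arc (0.24 to 0.35) and Junb (0.12 to 0.85) also kept their sign throughout.

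The shared replicate numbers were not treated as pairs, since the labels state genotype as the only factor. The deviations of same-numbered libraries correlated at 0.06 and 0.00. With 2 KO libraries these deviations mirror each other, so this check cannot exclude pairing. With the replicate block, in which WT replicate 3 did not inform the contrast, Jun stood at 0.42. In that fit Fos (−0.071), Egr1 (−0.15), Npas4 (−0.0093) and Atf3 (−0.13) changed sign. Egr1 was also at −0.021 with limma-voom, and Mafg at 0.0009 with upper-quartile factors. With 1 library left out, ranges that crossed 0 were −0.36 to 0.44 for Fos, −0.31 to 0.45 for Fosb, −0.41 to 0.34 for Egr1, −0.39 to 0.57 for Nr4a1, −0.052 to 0.57 for Npas4, −0.15 to 0.30 for Atf3, −0.078 to 0.068 for Mafg and −0.079 to 0.034 for Fbxw7. Differences in the log2 ratio of Jun ranged from −0.46 to 0.39 against Junb, −0.044 to 0.88 against Fos, −0.034 to 0.82 against Fosb and −0.15 to 0.92 against Nr4a1, and kept their sign at 0.14 to 0.19 against Jund, 0.097 to 0.27 against Arc, 0.17 to 0.58 against Atf3, 0.041 to 0.92 against Egr1 and 0.0041 to 0.47 against Npas4. Genes of the other lists that kept their sign but moved by over 1.5 times included Arl4d (−1.03 to −0.36), Maff (−0.97 to −0.35), Creb1 (−0.44 to −0.16), Flrt3 (−0.49 to −0.12), Mapk14 (−0.29 to −0.063), Cop1 (−0.21 to −0.086), Srf (0.043 to 0.27), Mef2d (0.0032 to 0.15), Mapk8ip1 (0.067 to 0.17), Crtc1 (0.090 to 0.20), Midn (0.15 to 0.29), Vgf (0.12 to 0.52) and Stmn4 (0.025 to 0.12). The median log2 fold change ranged from −0.018 to 0.37 for the 10 members and stayed between −0.19 and 0.12 for the other lists. The cause of each change was not tested. With 1 KO library left, that library is assumed to vary like the WT libraries. The counts of Fosb, Npas4 and Atf3, at 20 to 88 per library, limit what can be seen for them. What can be seen for Fos, Egr1 and Nr4a1 is limited by the gap between the KO libraries, 0.80, 0.75 and 0.95 on the log2 CPM scale.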
